A study of Astyanax mexicanus with 12 samples.

Results

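The mevalonate arm of cholesterol synthesis is the set of early enzymes that turn acetyl-CoA into isoprenoid precursors, and its transcripts were followed here through livers of the Mexican tetra, Astyanax mexicanus. The genes were chosen by name from 8 listed enzymes (acat2, hmgcs1, mvk, pmvk, mvd, idi1, fdps and ggps1). Of the 27420 genes in the table, 6 carried one of these names, and the names mvk and mvd matched no row and are not analysed here. All 6 genes found reached 1 TPM in at least 3 of the 12 libraries and were tested among 12895 genes. TPM is a transcript abundance divided by transcript length and scaled to the same total in every library, so levels of different genes can be set side by side.

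Liver RNA came from 12 adult fish libraries in 4 groups of 3. The groups were wild-caught cavefish of the Pachón cave (cave wild), laboratory Pachón cavefish (cave lab), wild-caught surface fish (surface wild) and laboratory surface fish (surface lab). Every fish had been fasted for 12 hours before dissection, and no further treatment or allele is named. The sources used here do not give sex, age, body size or capture details. Nothing states whether a library came from 1 fish or several, so p-values measure the spread between these libraries only. Below, a liver means 1 library and n counts libraries. Wild-caught against laboratory cannot be told apart from stock, diet history or ancestry, and cave against surface in the wild cannot be told apart from place and time of capture.

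The pathway starts when a thiolase joins acetyl-CoA units, continues through HMG-CoA synthase and leads to mevalonate. Kinases, a decarboxylase and an isomerase then make the activated isoprene units, which farnesyl diphosphate synthase joins into the precursor of squalene and cholesterol. In vertebrates most of these genes are activated by the membrane-bound factor SREBP2 when sterol in the endoplasmic reticulum falls, and the liver is a main site of this synthesis. A side branch feeds dolichol, ubiquinone and the lipid tails of prenylated proteins.

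The tissue label was checked against hepatocyte markers. Of 20 listed markers 15 were found by name, none was at 0 in a whole group, and their summed level was 55480 to 102200 TPM in cave wild, 98250 to 113700 in cave lab, 76410 to 93820 in surface wild and 100900 to 156400 in surface lab livers. The exception among them was cps1, at no more than 1.29 TPM in any library. In bulk tissue, fewer cells of a type and less RNA per cell cannot be told apart. Genes at 1 TPM or more numbered 9144 to 10034 in cave wild, 11853 to 12343 in cave lab, 10924 to 11045 in surface wild and 10994 to 11806 in surface lab livers. Median-of-ratios factors, a scaling on the typical gene of a library in place of its total, were 0.572 to 0.695 in cave wild livers. They were 1.23 to 1.37 in cave lab livers and 0.951 to 1.40 in all surface livers. On the TPM scale the median log2 difference of all tested genes was therefore -0.46 for cave wild minus surface wild and -0.69 for cave wild minus cave lab, against -0.03 and 0.01 with those factors, and calls and signs that change with the factors are given both ways below.

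Libraries 1 and 2 of the surface wild group stood apart for the mevalonate arm. The 6 genes summed to 20.1, 42.95 and 24.4 TPM in cave wild livers, to 38.5, 52.7 and 44.3 TPM in cave lab livers, to 2042, 387.5 and 126.3 TPM in surface wild livers and to 53.5, 125.4 and 43.7 TPM in surface lab livers. The surface wild libraries were the 3 highest of the 12, and they differed from one another more than the other groups did. Results are therefore given with all 12 libraries and also without libraries 1 and 2 of that group, which leaves a single surface wild library that is assumed to vary as the other groups do.

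**Figure D1:**
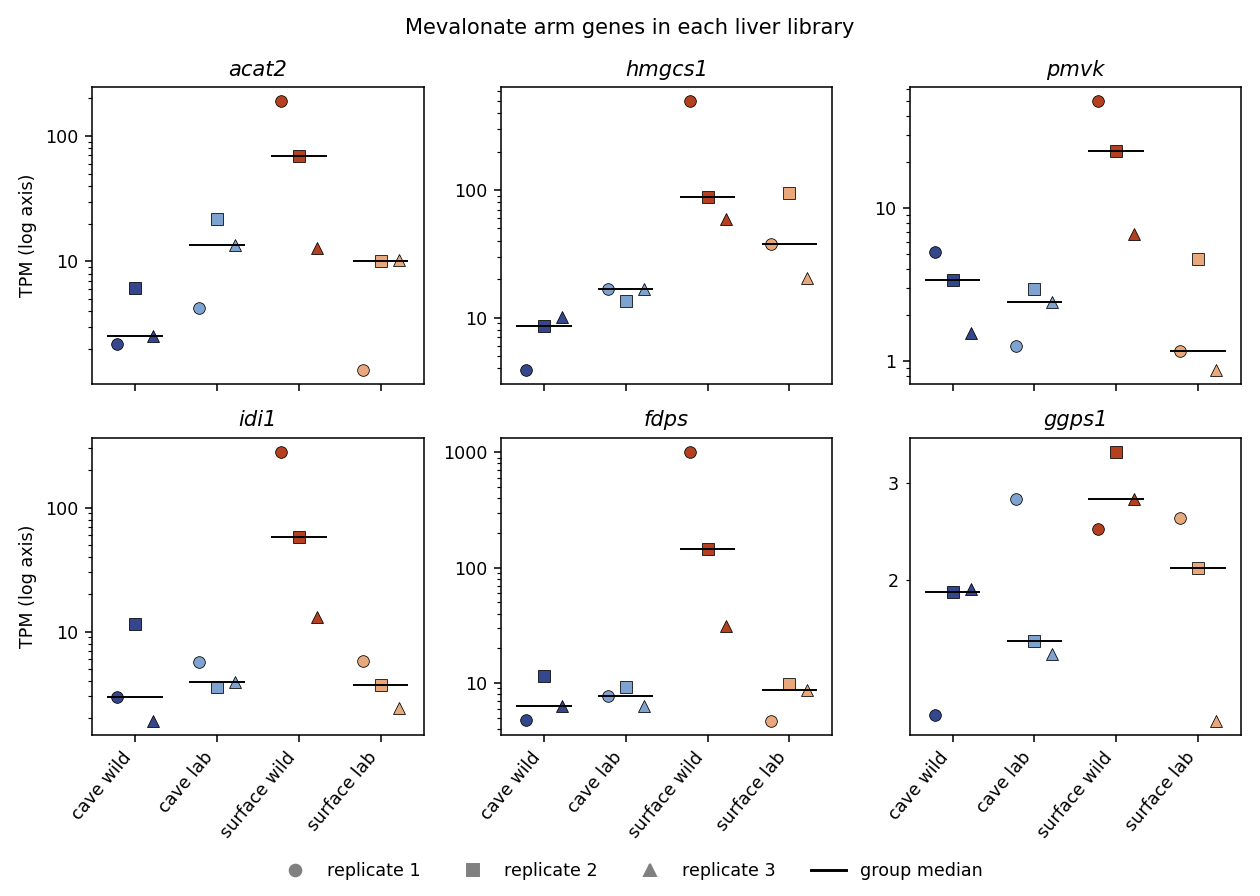
TPM on a log axis for each of the 6 mevalonate arm genes, with 1 point per liver library (circle, square and triangle for replicates 1, 2 and 3) and a bar at the group median. For fdps the surface wild points lie at 1015, 145 and 31.3 TPM, above all 9 other livers, whereas the ggps1 points of all groups lie between 1.11 and 3.42 TPM.

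The first reaction, in which a cytosolic thiolase makes acetoacetyl-CoA, is encoded by acat2 (ENSAMXG00000002149). It stood at 2.19, 6.08 and 2.56 TPM in cave wild livers, 4.28, 21.9 and 13.5 TPM in cave lab livers, 191, 69.0 and 12.9 TPM in surface wild livers, and 1.35, 10.1 and 10.3 TPM in surface lab livers. Cave wild lay wholly below surface wild, but surface wild library 3 lay within the range of cave lab livers. The next enzyme, HMG-CoA synthase, is encoded by hmgcs1 (ENSAMXG00000039120). Its levels were 3.85, 8.51 and 10.2 TPM in cave wild, 16.8, 13.5 and 16.6 TPM in cave lab, 501, 88.9 and 59.3 TPM in surface wild, and 37.9, 95.02 and 20.3 TPM in surface lab livers. For this gene both surface groups lay above both cave groups without overlap, and surface wild overlapped surface lab.

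Downstream of mevalonate, phosphomevalonate kinase is encoded by pmvk (ENSAMXG00000030964). It was at 5.20, 3.39 and 1.52 TPM in cave wild, 1.25, 2.95 and 2.43 TPM in cave lab, 50.4, 23.6 and 6.83 TPM in surface wild, and 1.17, 4.68 and 0.87 TPM in surface lab livers. The isomerase that interconverts the activated isoprene units is encoded by idi1 (ENSAMXG00000034930). Its levels were 2.99, 11.6 and 1.89 TPM in cave wild, 5.66, 3.58 and 3.95 TPM in cave lab, 283, 58.0 and 13.2 TPM in surface wild, and 5.78, 3.70 and 2.43 TPM in surface lab livers. In both genes all 3 surface wild livers lay above the other 9, although library 3 did so by only 1.31 times for pmvk and 1.14 times for idi1. How many of all tested genes have this pattern, which fdps below also shows, was not counted.

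Farnesyl diphosphate synthase, which makes the last intermediate shared by sterols and the other isoprenoids, is encoded by fdps (ENSAMXG00000033230). It stood at 4.74, 11.51 and 6.37 TPM in cave wild, 7.76, 9.31 and 6.32 TPM in cave lab, 1015, 145 and 31.3 TPM in surface wild, and 4.67, 9.78 and 8.75 TPM in surface lab livers. The other 3 groups overlapped one another, and their means were 7.54 ± 3.53, 7.80 ± 1.5 and 7.73 ± 2.70 TPM in cave wild, cave lab and surface lab (SD, n = 3 each), with 397 ± 538 TPM in surface wild. Geranylgeranyl diphosphate synthase, the entry to protein geranylgeranylation, is encoded by ggps1 (ENSAMXG00000031869) and was at 1.14, 1.90 and 1.93 TPM in cave wild, 2.81, 1.55 and 1.47 TPM in cave lab, 2.48, 3.42 and 2.80 TPM in surface wild, and 2.59, 2.1 and 1.11 TPM in surface lab livers. Only for ggps1 among the 6 genes was surface wild library 1 the lowest of its group.

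Which enzyme led the arm also differed. The share of fdps in the summed TPM of the 6 genes was 23.6, 26.8 and 26.1% in cave wild, 20.1, 17.7 and 14.3% in cave lab, 49.7, 37.3 and 24.8% in surface wild, and 8.73, 7.80 and 20.02% in surface lab livers. The share of hmgcs1 was 19.1, 19.8 and 41.6% in cave wild, 43.5, 25.6 and 37.6% in cave lab, 24.5, 22.9 and 47.0% in surface wild, and between 46.4 and 75.8% in surface lab livers. In surface lab livers the synthase gene hmgcs1 was thus the largest single contributor, while in surface wild libraries 1 and 2 it was fdps. Cave livers were mixed. The largest contributor was pmvk in cave wild library 1 (25.9%), idi1 in cave wild library 2 (26.9%) and acat2 in cave lab library 2 (41.4%). It was hmgcs1 in the remaining cave livers and in surface wild library 3. The ratio of fdps to ggps1 was 3.30 to 6.06 in cave wild, 2.76 to 6.01 in cave lab, 11.2 to 409 in surface wild and 1.80 to 7.88 in surface lab livers.

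The question of how the forms differ in the wild was addressed by cave wild minus surface wild. Of the 6 genes 5 fell in cave wild livers by limma with Benjamini-Hochberg adjusted p under 0.05, beside 26.5% of all tested genes that were lower by the same rule. With median-of-ratios factors 4 of the 6 were called lower, beside 7.82% of all tested genes, and pmvk no longer passed. The main fit used a single spread per gene over all 12 libraries. Surface wild livers spread more widely in the called genes, so these p-values may be too small. In a limma fit of only the groups compared, which holds fewer libraries, pmvk and idi1 did not pass (adjusted p = 0.0514 and 0.0531). The libraries of the groups did not overlap in any of the 6 genes, with 37.2% of all tested genes lower without overlap. The median log2 difference of the 6 was -3.64, against -0.46 over all tested genes.

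Levels of fdps averaged 7.54 ± 3.53 TPM in cave wild and 397 ± 538 TPM in surface wild livers (SD, n = 3 each), a limma log2 difference of -4.38 ± 0.90 (SE, adjusted p = 0.00841). The synthase gene hmgcs1, at 7.5 ± 3.27 TPM in cave wild and 216 ± 247 TPM in surface wild livers, differed by -4.12 ± 0.73 (limma adjusted p = 0.00498). These genes had the largest differences of the 6. The thiolase gene acat2 fell by 3.73 ± 0.90 on the log2 scale (limma adjusted p = 0.0134), and the isomerase gene idi1 fell by 3.56 ± 0.86 (adjusted p = 0.0132). A smaller fall was seen in pmvk, by 2.39 ± 0.63 (limma adjusted p = 0.0174), which was -1.84 with median-of-ratios factors (adjusted p = 0.0529). The difference of ggps1 was -0.56 ± 0.27 (limma adjusted p = 0.123), with a 95% interval of -1.14 to 0.02, and -0.11 with median-of-ratios factors.

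Without surface wild library 1, 3 of the 6 genes passed in this comparison (hmgcs1, idi1 and fdps), with acat2 at -2.85 (limma adjusted p = 0.0515). The call of pmvk was lost without cave wild library 2 or 3 or surface wild library 1 or 2, at -1.76 to -2.44 and limma adjusted p of 0.0506 to 0.0647. Without libraries 1 and 2 none of the 6 passed with limma (of all tested genes, 226 did) and 2 of the 6 had an unadjusted p under 0.05. The differences kept their sign, and hmgcs1 stood at -2.91 (adjusted p = 0.0836) and fdps at -2.0 (adjusted p = 0.0862). The direction of all 6 was the same with each library left out in turn.

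**Figure D2:**
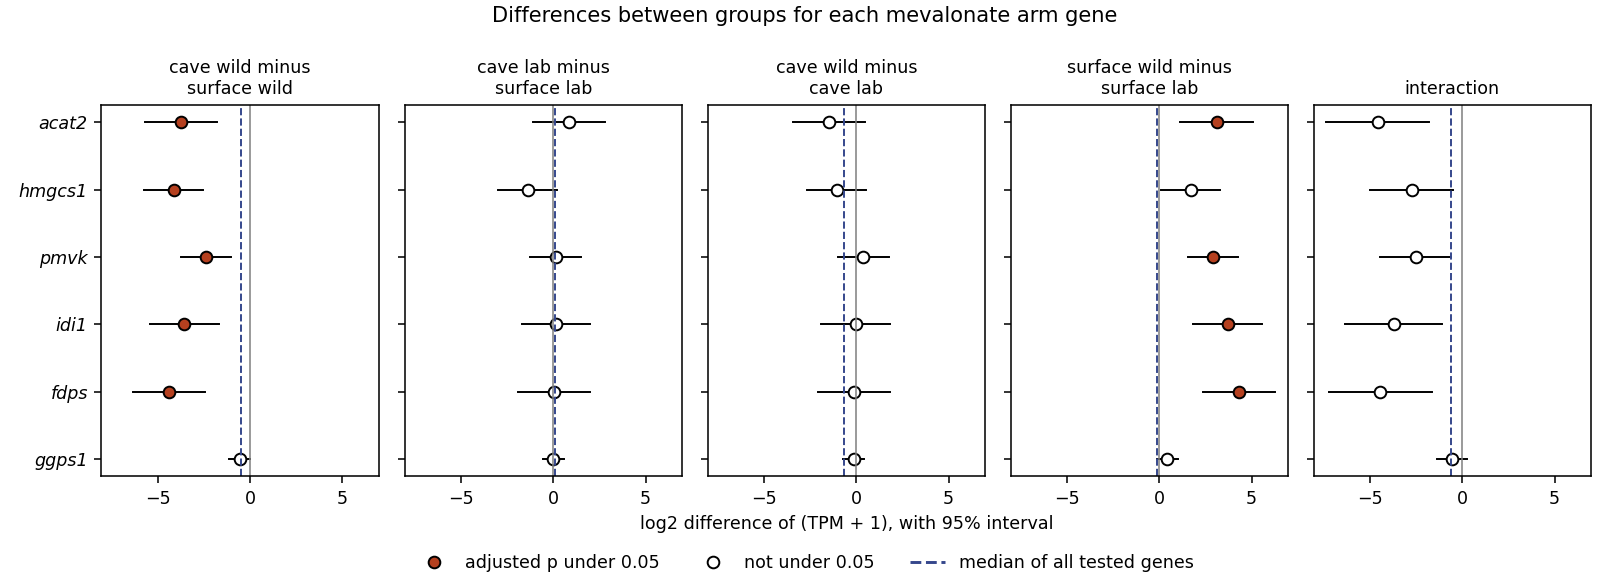
Log2 difference of TPM + 1 with its 95% interval for each of the 6 genes in 5 comparisons, with filled points for adjusted p under 0.05 and a dashed line at the median of all tested genes. Filled points appear for 5 genes in cave wild minus surface wild and for 4 in surface wild minus surface lab, and none appears in the interaction.

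Between laboratory cave and laboratory surface livers, none of the 6 genes passed with limma, and 0 had an unadjusted p under 0.05 (1 with median-of-ratios factors, where none passed either). Among all tested genes 5.26% were called higher and 2.3% lower in this comparison. The precision was limited: for acat2, at 13.2 ± 8.79 TPM in cave lab and 7.23 ± 5.10 TPM in surface lab livers (SD, n = 3 each), the log2 difference was 0.86 with a 95% interval of -1.10 to 2.82. For fdps it was 0.05, with an interval of -1.91 to 2.01. The fit used a single spread per gene over all 12 libraries, the widely spread surface wild ones included. The SE of fdps was thus 0.90 in every comparison of a pair of groups. Its interval therefore does not measure the spread of the laboratory livers alone. There fdps was at 7.80 ± 1.5 TPM in cave lab and 7.73 ± 2.70 TPM in surface lab livers. With no shared range, hmgcs1 was at 15.6 ± 1.85 TPM in cave lab and 51.1 ± 39.1 TPM in surface lab livers (-1.38 ± 0.73, limma adjusted p = 0.321). That gene was the only one of the 6 without overlap, beside 8.73% of all tested genes that were lower without overlap. The remaining differences were 0.13 for pmvk, 0.16 for idi1 and 0.01 for ggps1, and the median of the 6 was 0.09, against 0.10 over all tested genes.

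In cavefish, wild-caught against laboratory livers gave no call among the 6 genes with limma, and 0 had an unadjusted p under 0.05 on either scale. Here 34.3% of all tested genes were called lower and 1.51% higher on the TPM scale, and 3.51% lower and 3.75% higher with median-of-ratios factors. On the TPM scale the largest differences were those of acat2, at -1.48 ± 0.90 (limma adjusted p = 0.210), and hmgcs1, at -1.05 ± 0.73 (adjusted p = 0.271). With median-of-ratios factors these were -0.66 and -0.15, and the largest was that of pmvk at 1.12 (limma adjusted p = 0.259), against 0.39 on the TPM scale. On the TPM scale only hmgcs1 was lower without overlap, as were 56.6% of all tested genes. The median difference of the 6 genes was -0.12, against -0.69 over all tested genes, and 0.64 with median-of-ratios factors, against 0.01. The sign of idi1, fdps and ggps1 turned positive with median-of-ratios factors, so no direction is given for them. Cave wild library 2 held the highest value of its group in acat2, idi1 and fdps, and idi1 was at 11.6 TPM there, against 2.99 and 1.89 TPM in the other cave wild libraries.

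In surface fish, 4 of the 6 genes rose in wild-caught livers relative to laboratory livers, where 6.77% of all tested genes were called higher (9.48% with median-of-ratios factors, with the same count of 4). This comparison and cave wild minus surface wild share the surface wild libraries, so their calls are not independent. The single spread per gene over all libraries may make the p-values too small here as well. All 4 were higher without overlap, as were 10.6% of all tested genes. The largest rise was that of fdps, at 397 ± 538 TPM in surface wild and 7.73 ± 2.70 TPM in surface lab livers (SD, n = 3 each; log2 difference 4.32 ± 0.90, limma adjusted p = 0.0109). Next came idi1 at 3.70 ± 0.86 (limma adjusted p = 0.0164). The kinase gene pmvk, at 26.9 ± 21.97 TPM in surface wild and 2.24 ± 2.12 TPM in surface lab livers, rose by 2.91 ± 0.63 (limma adjusted p = 0.0124). For acat2 the rise was 3.10 ± 0.90 (limma adjusted p = 0.0355). The median difference of the 6 genes was 3.01, against -0.11 over all tested genes.

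The 2 genes that did not pass in surface fish were hmgcs1 (1.70 ± 0.73, limma adjusted p = 0.119) and ggps1 (0.44 ± 0.27, adjusted p = 0.257). For hmgcs1 the overlap came from surface lab library 2, at 95.02 TPM, above surface wild libraries 2 and 3. Without surface wild library 3, hmgcs1 (2.30, limma adjusted p = 0.0378) passed as well, for 5 genes of 6. All genes called here also changed widely in number with single libraries left out, over the range given at the end. Without surface lab library 3, 2 genes passed, with idi1 at a limma adjusted p of 0.0537. The call of acat2 was lost with no filter on low values (limma adjusted p = 0.0784) and without cave lab library 3, surface wild library 1 or 2 or any single surface lab library, where it was 2.23 to 3.48 with limma adjusted p of 0.0503 to 0.132. Without surface wild libraries 1 and 2 none of the 6 passed with limma (154 of all tested genes did) and 3 of the 6 had an unadjusted p under 0.05. In that fit fdps stood at 1.94 (adjusted p = 0.116) and idi1 at 1.57 (adjusted p = 0.322). A limma fit of the surface groups alone called none of the 6 (4 at an unadjusted p under 0.05), with fdps at an adjusted p of 0.0925.

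**Figure D3:**
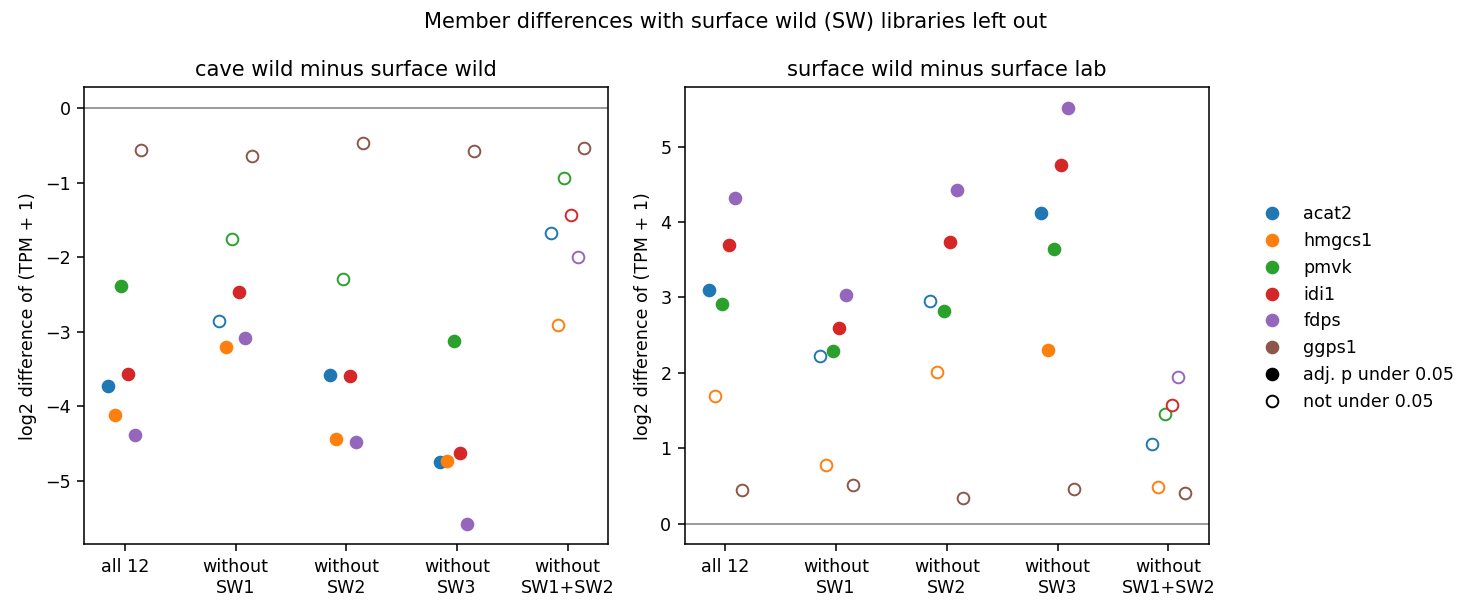
Log2 differences of the 6 genes in cave wild minus surface wild (left) and surface wild minus surface lab (right), with all 12 libraries and with surface wild (SW) libraries left out, filled where adjusted p was under 0.05. Without SW1 and SW2 no point is filled, and fdps stands at -2.0 on the left and 1.94 on the right.

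Whether the form difference itself depended on environment was tested by the interaction, which is cave minus surface in wild-caught fish minus cave minus surface in laboratory fish. None of the 6 genes passed with limma, beside 4.19% of all tested genes with a lower call (0.659% with median-of-ratios factors, and again none of the 6 passed). An unadjusted p under 0.05 that did not survive adjustment was found for 5 of them, namely acat2 (-4.58 ± 1.27, limma adjusted p = 0.0575), fdps (-4.43 ± 1.27, adjusted p = 0.0617), idi1 (-3.72 ± 1.21, adjusted p = 0.0785), pmvk (-2.52 ± 0.89, adjusted p = 0.0930) and hmgcs1 (-2.75 ± 1.03, adjusted p = 0.107). With median-of-ratios factors 4 of the 6 had an unadjusted p under 0.05. The share of all tested genes at that cut is not given, so these counts are descriptions. The interaction of ggps1 (-0.57 ± 0.38) was near the median of all tested genes, -0.61. Without surface wild library 3 these 5 genes passed, from fdps at -5.62 (limma adjusted p = 0.00447) to hmgcs1 at -3.35 (adjusted p = 0.0334). The number of all genes called in the interaction also changed widely with single libraries left out, over the range given at the end. The member counts of such fits are therefore descriptions. Without surface lab library 2 acat2 alone passed (-4.95, limma adjusted p = 0.0495).

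Within the surface wild group the 6 genes were graded. The ratio of library 1 to library 3 was 32.4 for fdps, 21.4 for idi1, 14.9 for acat2, 8.45 for hmgcs1, 7.38 for pmvk and 0.886 for ggps1. In 5 of the 6 genes library 1 was highest and library 3 lowest, an order also found in 25.9% of all tested genes. The summed biliary markers had the same order: 6 of 8 listed markers were found, together at 1570, 943.9 and 302.7 TPM in surface wild libraries 1, 2 and 3, against 565.8 to 929.3 TPM in surface lab livers, 398.1 to 881.4 TPM in cave wild and 440.5 to 474.4 TPM in cave lab livers. The keratin genes krt8 and krt18a.1 made up most of these sums and were the only 2 of the 6 in that order, since anxa4, onecut1 and cftr were highest in library 3 and hnf1ba in library 2. None of the 6 was at 0 in a whole group, and the duct chloride channel gene cftr did not exceed 0.40 TPM. Exocrine pancreas markers, 6 of 20 found and none at 0 in a whole group, summed to 719.5 to 1517 TPM in cave wild, 181 to 1566 in cave lab, 888.4 to 8203 in surface wild and 1063 to 3308 in surface lab livers, with 8203 TPM in surface wild library 3. Erythrocyte and thrombocyte markers, 9 of 17 found and none at 0 in a whole group, summed to 107.8 to 180.8 TPM in cave wild, 204.9 to 279.8 in cave lab, 24.9 to 65.0 in surface wild and 190.9 to 377 in surface lab livers. Macrophage markers, 11 of 17 found and none at 0 in a whole group, summed to 31.7 to 75.0 TPM in cave wild, 94.5 to 130.7 in cave lab, 113 to 119 in surface wild and 34.9 to 137.7 in surface lab livers. The close surface wild sums joined unlike patterns. In surface wild libraries 1, 2 and 3 csf1ra was at 2.78, 50.4 and 1.71 TPM, and cd74a at 61.96, 16.82 and 61.57 TPM. Egg yolk and oestrogen-responsive genes, 3 of 12 found (vtg3, esr1 and fam20cl), summed to 1256 to 2944 TPM in cave wild, 377.8 to 1392 in cave lab, 42.2 to 143.1 in surface wild and 39.4 to 894.5 in surface lab livers. The part of these markers, or of the sex of the fish, in the results above was not tested.

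The genes that varied most like the arm were chosen by Pearson r between log2(TPM + 1) of each uniquely named gene and the mean profile of the 6. Of 9882 genes ranked the median r over the 12 libraries was 0.168, and 182 genes exceeded 0.9. The 8 highest were hsd17b7 (r = 0.979), sc5d (0.976), msmo1 (0.974), si:ch211-212g7.6 (0.969), ewsr1b (0.968), tnpo3 (0.964), srp9 (0.962) and sqlea (0.959). After group means were subtracted, r over the 12 libraries was 0.965, 0.946, 0.952, 0.943, 0.93, 0.904, 0.864 and 0.911 in that order. Both hsd17b7 and sqlea met the filter for testing only through the surface wild livers, where they were high. Within groups the surface wild libraries had the widest spread, and the 8 genes were chosen on these same libraries. Their r within groups therefore mostly reflects the surface wild libraries and is no separate evidence of likeness. Of these genes hsd17b7, sc5d, msmo1 and sqlea encode later enzymes of cholesterol synthesis, ewsr1b encodes an RNA-binding protein, tnpo3 a nuclear import receptor and srp9 a subunit of the signal recognition particle. Among the 6 members themselves, r with the mean of the other 5 was 0.977 for fdps, 0.936 for idi1, 0.899 for pmvk, 0.863 for acat2, 0.815 for hmgcs1 and 0.52 for ggps1. After subtraction of group means ggps1 had an r of -0.10, against 0.716 to 0.944 for the other 5. All of these values come from the same 12 libraries and are descriptions.

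The gene mvda (ENSAMXG00000003563), at rank 12 of that ranking (r = 0.955) and named after its values were seen, has the zebrafish symbol of the mevalonate diphosphate decarboxylase, the enzyme between pmvk and idi1 that the listed name mvd did not match. It was at 2.39, 4.98 and 2.55 TPM in cave wild, 1.88, 4.01 and 2.59 TPM in cave lab, 117, 22.8 and 12.4 TPM in surface wild, and 1.68, 1.93 and 1.42 TPM in surface lab livers. All 3 surface wild livers again lay above the other 9, a pattern favoured by the choice of mvda for its likeness to the members. Since mvda was named for its likeness to the members, no test is given for it.

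Beyond the arm, the enzymes from squalene to cholesterol moved in the same comparisons. Of 12 found and tested, 10 fell in cave wild relative to surface wild livers (7 with median-of-ratios factors), beside 26.5% of all tested genes (7.82% with the factors), with a median log2 difference of -3.41, against -0.46 over all tested genes. In surface wild relative to surface lab livers 9 of the 12 rose (10 with median-of-ratios factors), beside 6.77% of all tested genes (9.48% with the factors), with a median of 3.67, against -0.11. A fit of the surface groups alone called none of the 12 with limma (10 at an unadjusted p under 0.05). None of the 12 passed with limma in cave lab minus surface lab (1 at an unadjusted p under 0.05) or in cave wild minus cave lab (0 at an unadjusted p under 0.05). The list was not uniform. The gene tm7sf2 was at 13.63, 58.11 and 17.42 TPM in cave wild and 12.03, 11.24 and 15.85 TPM in cave lab livers. It was at 91.96, 24.54 and 8.17 TPM in surface wild and 1.59, 1.63 and 1.27 TPM in surface lab livers. Both cave groups thus lay above surface lab, and cave wild overlapped surface wild. In the interaction 6 of the 12 were called lower, beside 4.19% of all tested genes. None passed there with median-of-ratios factors, with quantile scaling or with no filter on low values (8, 8 and 11 at an unadjusted p under 0.05), and 3 passed with a filter of 5 TPM. The number called in the interaction was 0 without any one of cave wild libraries 1 or 3, cave lab libraries 2 or 3 and surface lab libraries 1 or 3. It was 1 without cave lab library 1 or surface wild library 2, 3 without surface wild library 1 and 11 without surface wild library 3. These counts stand beside a number of all genes called that also changed widely, over the range given at the end. Calls also remained without cave wild library 2 or surface lab library 2. The methylsterol monooxygenase gene msmo1 was at 1.77 ± 2.32 TPM in cave wild and 111.9 ± 133 TPM in surface wild livers (SD, n = 3 each; -4.80 ± 0.83, limma adjusted p = 0.00461). Squalene epoxidase, sqlea, a second control point of the pathway, was at 59.7 ± 71.0 TPM in surface wild and 0.0767 ± 0.133 TPM in surface lab livers (4.93 ± 0.83, limma adjusted p = 0.00464). Lanosterol synthase, lss, rose in surface wild relative to surface lab livers by 4.52 ± 0.79 (limma adjusted p = 0.00555), and the sterol isomerase gene ebp by 5.13 ± 0.92 (adjusted p = 0.00616). Of the 12, hsd17b7, sqlea and lss met the filter of 1 TPM in 3 libraries only through the surface wild livers, where they were high. Their differences and the counts of this list are therefore descriptions. Library 1 was highest and library 3 lowest of the surface wild group in 11 of the 12, beside 25.9% of all tested genes. Without surface wild libraries 1 and 2, 1 of the 12 was called lower and 1 higher in these comparisons.

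**Figure D4:**
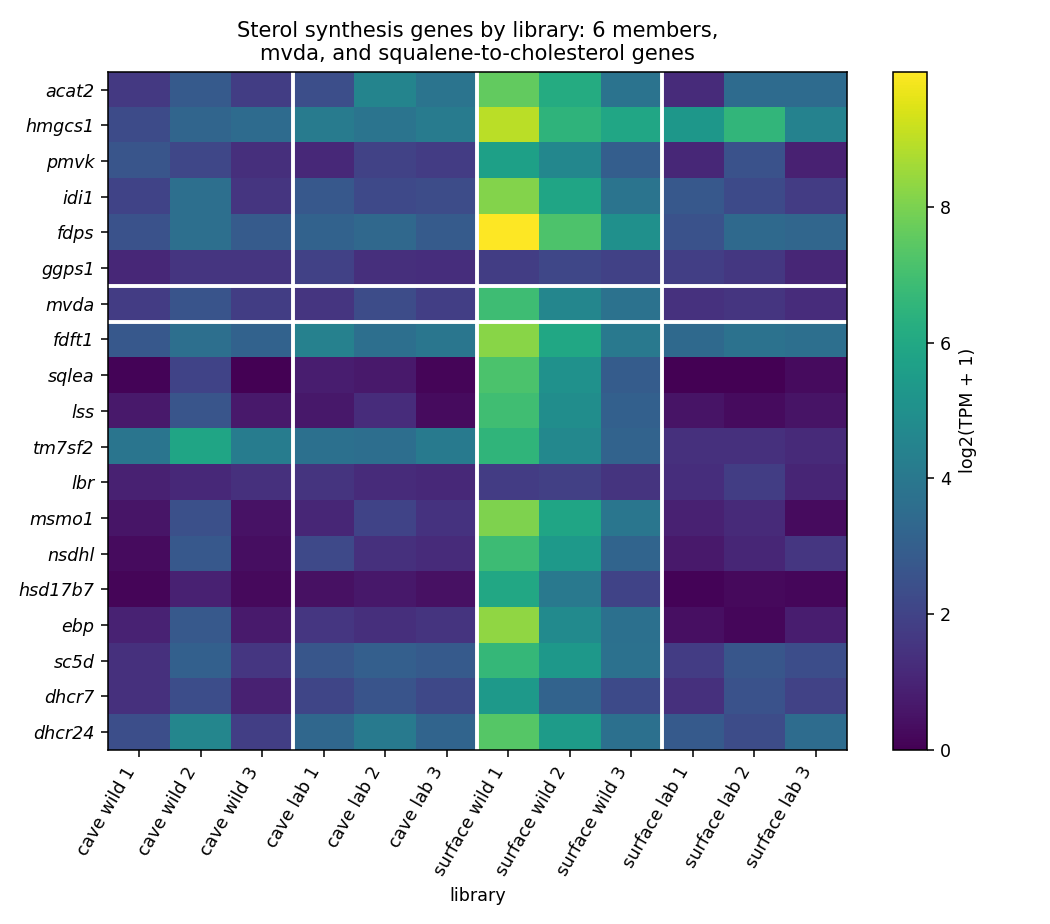
Log2(TPM + 1) of the 6 mevalonate arm genes (top), mvda (middle row) and the 12 squalene to cholesterol genes (bottom) in each of the 12 libraries. The brightest gene is fdps in surface wild libraries 1 and 2, at 1015 and 145 TPM, and hmgcs1 in surface wild library 3, at 59.3 TPM, and lbr and ggps1 stay dark in every library.

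Genes of sterol sensing and uptake, 14 tested of 16 found, gave 5 calls, all lower, in cave wild minus surface wild (4 with median-of-ratios factors and 1 with quantile scaling), and 3 calls, all higher, in surface wild minus surface lab (1 when only the surface groups were fitted). Of all tested genes 26.5% were lower in the first comparison (7.82% with median-of-ratios factors) and 6.77% higher in the second. Without surface wild libraries 1 and 2 the counts were 1 and 0 (2 at an unadjusted p under 0.05). The factor gene srebf2, which encodes SREBP2, was at 2.94, 15.7 and 3.69 TPM in cave wild, 10.2, 9.01 and 7.76 TPM in cave lab, 42.6, 43.7 and 16.6 TPM in surface wild, and 6.32, 6.80 and 4.83 TPM in surface lab livers. It fell in cave wild relative to surface wild livers by 2.27 ± 0.51 (limma adjusted p = 0.0112) and rose in surface wild relative to surface lab livers by 2.23 ± 0.51 (adjusted p = 0.0162). The srebf2 rise was 2.02, 2.0 and 2.1 (limma adjusted p = 0.0594, 0.0576 and 0.0519) without surface wild library 1, surface wild library 2 and surface lab library 3. The cholesterol uptake gene npc1l1 was at 0.407 ± 0.263 TPM in cave wild and 6.84 ± 1.67 TPM in surface wild livers (SD, n = 3 each; -2.47 ± 0.27, limma adjusted p = 3.7e-04), and its interaction was -2.09 ± 0.38 (adjusted p = 0.0156). In the interaction 2 of the 14 were called lower (1 with median-of-ratios factors), beside 4.19% of all tested genes (0.659% with the factors). The other call was srebf2 (-2.79 ± 0.73, limma adjusted p = 0.0485). It passed in 4 of 20 alternatives, against 18 of 20 for npc1l1. The lipoprotein receptor gene ldlrb, at 28.4 ± 5.53 TPM in surface wild and 1.01 ± 1.35 TPM in surface lab livers, rose by 4.05 ± 0.72 (limma adjusted p = 0.00577). Its counterpart ldlra was at 95.3 ± 31.9 TPM in surface wild and 80.7 ± 16.3 TPM in surface lab livers.

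In cave wild minus cave lab, 6 of the 14 sterol sensing genes were called lower, beside 34.3% of all tested genes, and none with median-of-ratios factors (2 at an unadjusted p under 0.05), so no direction is given for them. The acetyl-CoA supply genes, 4 tested, gave 1 call in cave wild minus surface wild, acss1, a mitochondrial acetyl-CoA synthetase (0.507 ± 0.215 TPM in cave wild and 11.3 ± 8.86 TPM in surface wild livers; -2.53 ± 0.64, limma adjusted p = 0.0151). That is 1 of 4, beside 26.5% of all tested genes called lower. None of the 4 passed with limma when only these groups were fitted (2 at an unadjusted p under 0.05), nor did either of the 2 left by a filter of 5 TPM (1 at an unadjusted p under 0.05). Without surface wild library 1 or 2 the acss1 difference was -2.08 or -1.98 (adjusted p = 0.0609 or 0.0611). The citrate carrier gene slc25a1b, which exports the carbon for cytosolic acetyl-CoA, was at 23.2 ± 2.72 TPM in cave wild and 110 ± 43.9 TPM in cave lab livers (-2.14 ± 0.45, limma adjusted p = 0.00551). That call is one of 2 in cave wild minus cave lab on the TPM scale, and no acetyl-CoA supply gene passed there with median-of-ratios factors (1 at an unadjusted p under 0.05).

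Of the 12 genes of the isoprenoid branches that are reported, all tested, 7 fell in cave wild relative to surface wild livers (2 with median-of-ratios factors), beside 26.5% of all tested genes (7.82% with the factors). In surface wild relative to surface lab livers 3 of the 12 rose, beside 6.77% of all tested genes. The first count was 1 with quantile scaling and 2 when only the groups compared were fitted, and the second was 1 with no filter on low values and 0 when only the surface groups were fitted (3 at an unadjusted p under 0.05). The long-chain prenyl synthase gene pdss1, which serves ubiquinone, was at 0.343 ± 0.290 TPM in cave wild and 1.97 ± 1.16 TPM in surface wild livers (SD, n = 3 each, log2 difference -1.10 ± 0.27, limma adjusted p = 0.0136). It reached 1 TPM in no other group, so it entered testing only through the surface wild livers, where it was high. Both counts of this list include pdss1, so its differences and these counts are descriptions. The dolichol gene nus1 was at 2.04 ± 1.01 TPM in cave wild and 14.9 ± 4.43 TPM in surface wild livers (-2.41 ± 0.57, limma adjusted p = 0.0124). The gene pggt1b, for a subunit of the enzyme that adds geranylgeranyl tails, was at 4.14 ± 1.60 TPM in surface wild and 0.913 ± 0.761 TPM in surface lab livers and rose by 1.46 ± 0.38 (limma adjusted p = 0.0245). The pggt1b rise was 1.32, 1.31 and 1.09 without surface wild library 1, surface wild library 2 and surface lab library 3 (limma adjusted p = 0.0855, 0.0804 and 0.0856). Without cave wild library 2 the difference of nus1 was -2.09 (limma adjusted p = 0.0511) and that of pdss1 -0.94 (adjusted p = 0.0554). Without surface wild libraries 1 and 2 none of the 12 passed with limma in either comparison, with 3 and 1 at an unadjusted p under 0.05. The count of lower calls was 0 without cave wild library 2 (7 at an unadjusted p under 0.05), 2 without surface wild library 1 or 2 and 4 without cave wild library 3. The count of rises was 1 without surface wild library 1 or 2 or surface lab library 3 and 6 without surface wild library 3. Over all tested genes the number called also changed widely in such fits, over the range given at the end. No gene of the branches passed in cave lab minus surface lab with limma (2 at an unadjusted p under 0.05), where fntb, a farnesyltransferase subunit, was at 7.81 ± 1.12 TPM in cave lab and 14.2 ± 1.57 TPM in surface lab livers (-0.79 ± 0.26, adjusted p = 0.102).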

How the data were processed

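The 12 stranded mRNA libraries from liver were sequenced as single reads of 75 bp on a NextSeq instrument, per the labels' protocols. The authors deposited TPM per Ensembl gene, named as RSEM output per the file name; bcl2fastq 2.18, STAR 2.6.1c and RSEM are named in the submitters' processing notes. Genome build, annotation and RSEM version: not given in the sources used here. TPM keeps no depth, so read numbers are unknown. All value columns were matched to samples by group and replicate number.

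Values were analysed as log2(TPM + 1), a scale that understates changes of low genes. The 12895 genes that reached 1 TPM in 3 or more libraries were fitted in R 4.3.3 with limma 3.58.1 (4 group means, all 12 libraries, eBayes with trend, two-sided), with Benjamini-Hochberg adjustment over all of them within each of 5 contrasts and a threshold of 0.05. The procedure was tested on simulated data in which each gene had the same spread in all groups. That test does not cover the wider spread of the surface wild livers. Members are the rows whose name equals a listed enzyme; some listed items are not reported here, and counts and sums leave them out. Other named genes are, per list and contrast, up to 4 called members with the smallest adjusted p, or up to 2 with the highest mean where none was called. The 8 genes most like the member profile are added, and the text gives a selection of all these genes. Beside them stand srebf2 per library, mvda, ldlra, tm7sf2, cps1, csf1ra, cd74a, cftr, the keratins and lbr, which were chosen after their values were seen. The members and lists were chosen with earlier results of these data known, so their counts are descriptions. List counts under the alternatives were added after seeing the data. Counts at an unadjusted p under 0.05 stand without the share of all tested genes at that cut and are descriptions throughout.

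The alternatives tried were a pseudocount of 0.1, a filter of 5 TPM or none, median-of-ratios or quantile scaling, TPM without the 50 most abundant genes, a block for replicate number, a fit of only the groups compared, each library left out, and surface wild libraries 1 and 2 left out together. Residuals of libraries with equal replicate numbers correlated at 0.153, 0.111 and 0.271 between surface wild and surface lab, all above 0.1. The main fit held no pairing in any comparison. The block for replicate number was an alternative fitted over all libraries and all contrasts.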

Additional observations from a re-analysis of the deposited data

How the results depend on the processing

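The 5 members called in cave wild minus surface wild and the 4 in surface wild minus surface lab kept their direction under all 21 alternatives. Without both surface wild libraries 1 and 2 the members called fell to 0 in these comparisons. Genes called fell to 226, 154 and, in the interaction, 160. That fit keeps 1 surface wild library, so it cannot tell dependence of the calls on libraries 1 and 2 from lost precision. In cave wild minus surface wild it gave -2.91 for hmgcs1 and -2.0 for fdps. With all libraries these were -4.12 and -4.38. With 3 libraries per group the intervals were wide, depth is unknown, and TPM ties every gene to the most abundant ones. A difference that did not pass is therefore not shown to be absent.

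Members called were 3 in cave wild minus surface wild, 1 in cave wild minus cave lab (hmgcs1) and 0 in surface wild minus surface lab when only the groups compared were fitted. With single libraries left out they numbered 3 to 5 in cave wild minus surface wild, 2 to 5 in surface wild minus surface lab and 0 to 5 in the interaction. All genes called numbered 1546 to 5162 in cave wild minus surface wild, 614 to 1059 in cave lab minus surface lab, 2179 to 5269 in cave wild minus cave lab, 882 to 3616 in surface wild minus surface lab and 161 to 3035 in the interaction when single libraries were left out.

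With all libraries, called genes numbered 661 higher and 3413 lower (4074) in cave wild minus surface wild, 678 and 296 (974) in cave lab minus surface lab, 195 and 4423 (4618) in cave wild minus cave lab, 873 and 1444 (2317) in surface wild minus surface lab, and 115 and 540 (655) in the interaction. In the same order, median-of-ratios scaling gave 1300 and 1009 (2309), 451 and 312, 484 and 453 (937), 1223 and 1142, and 186 and 85 (271). Quantile scaling gave 1090 and 935 (2025), 461 and 366, 440 and 494 (934), 1252 and 1099, and 155 and 77 (232). A filter of 5 TPM gave 381 genes in cave lab minus surface lab, 2732 in cave wild minus cave lab and 305 in the interaction. Fitting only the groups compared gave 1916 in cave wild minus surface wild and 122 in surface wild minus surface lab.

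Under the block for replicate number the members called were 5, 0, 0, 4 and 0 and the genes called 4011, 889, 4649, 2343 and 524 in that order, and no member call changed. In every comparison the libraries of equal number are known to share only that number.

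Among values that passed no test, signs turned as follows. In cave lab minus surface lab, median-of-ratios scaling gave -0.10 for fdps, -0.089 for ggps1 and -0.17 for npc2, and quantile scaling gave -0.015 for pmvk, -0.060 for fdps and -0.17 for ggps1. In cave wild minus cave lab, median-of-ratios scaling gave 0.78 for idi1, 0.77 for fdps, 0.51 for ggps1, 0.10 for fdft1 and 0.63 for nus1. Quantile scaling gave 0.81 for idi1, 0.75 for fdps, 0.59 for ggps1, 0.042 for fdft1 and 0.67 for nus1. Removing abundant genes gave 0.10 for idi1, 0.034 for fdps and 0.061 for nus1, and the pseudocount of 0.1 gave -0.16 for ebp. In the interaction, ggps1 was 0.033 with quantile scaling.

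With single libraries left out, signs also turned, with these lowest and highest values: in cave wild minus cave lab idi1 (-0.65 to 0.41), fdps (-0.42 to 0.14), ggps1 (-0.25 to 0.067), ebp (-0.63 to 0.41), nus1 (-0.21 to 0.28); in cave lab minus surface lab idi1 (-0.084 to 0.41), ggps1 (-0.21 to 0.17), ldlra (-0.25 to 1.24), npc2 (-0.15 to 0.21), slc25a1b (-0.11 to 0.49), pmvk (-0.17 to 0.63), fdps (-0.23 to 0.23); in surface wild minus surface lab acss2 (-0.36 to 0.090). The cause of these changes was not tested.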
